A study of Mus musculus with 4 samples.

Results

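The Bim 3' UTR is represented in the authors' deposited table by 8 features of the gene Bcl2l11, named as Bim seeds and numbered 1 to 9 with number 4 not listed. They were taken by that name and are 8 of 2548 listed features, which belong to 1848 genes. In general a seed match is a short stretch of a transcript that pairs with the first bases of a microRNA, but how the authors delimited these features is not given in the sources used here. All lines were B cell progenitors derived from mouse fetal liver (C57BL/6, E14.5) and transformed with a retroviral vector that carries the Abelson kinase, v-Abl. The wild-type group held 2 lines and the Bim3'UTRmut/mut group 2 lines that carry the mutated 3' UTR on both alleles, called biological replicates in the labels. Whether each line was 1 clone is not given in the sources used here. Ago2-bound RNA was read by PAR-CLIP: cells took up the photoreactive nucleoside 4-thiouridine (500 µM for 5 hours), RNA was crosslinked to protein at 365 nm, Ago2 was precipitated, and the trimmed RNA was sequenced.

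Bcl2l11 encodes BIM, a BH3-only protein of the BCL-2 family that binds the survival proteins of that family and starts the mitochondrial path of apoptosis. Ago2 is the Argonaute protein that holds a microRNA and is guided by it to matching sites, mostly in 3' UTRs, where the transcript is repressed. The miR-17 cluster, also called miR-17-92, is needed for B cell development in mice, and Bim is among its best-known targets. The allele studied here is known for changes to the matches of this cluster's microRNAs in the Bim 3' UTR.

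The microRNAs of the cluster fall into 4 families by the bases that pair with a target. Of these, 6 mature sequences are shown to make the families visible, since a seed match is defined by them. They are from RefSeq (GRCm38.p6), all on the plus strand of chr14:115043684-115044496, written 5′ to 3′ with bases 2 to 8, the microRNA's own seed, in capitals. The microRNAs themselves were not measured here.
mmu-miR-17-5p: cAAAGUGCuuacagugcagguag
mmu-miR-20a-5p: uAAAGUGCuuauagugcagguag
mmu-miR-18a-5p: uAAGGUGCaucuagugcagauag
mmu-miR-19a-3p: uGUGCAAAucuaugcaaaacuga
mmu-miR-19b-3p: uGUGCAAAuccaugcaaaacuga
mmu-miR-92a-3p: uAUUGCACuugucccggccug

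Within a family the capitals are the same: miR-17-5p and miR-20a-5p differ only at C1U and C12U, and miR-19a-3p and miR-19b-3p only at U11C, counted from the 5′ end. The miR-17 and miR-18 families differ by 1 base of the seed, A4G from miR-17-5p to miR-18a-5p. A transcript site that pairs with all 7 capitals reads GCACUUU for the miR-17 family, GCACCUU for miR-18, UUUGCAC for miR-19 and GUGCAAU for miR-92. Other mature microRNAs of the RefSeq table hold the same seeds: 5 for the miR-17 family, among them miR-93-5p and miR-106b-5p, 5 for miR-92, among them miR-25-3p and miR-32-5p, 1 for miR-18 and 0 for miR-19. The table and the labels number the Bim seeds and pair none of them with a family or with the sites that were changed. Mutated and intact sites were therefore not compared here, and each seed is described by its number.

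Whole reads of each library were recovered from the deposited means. Their replicate numbers are not known, so the 2 libraries that the authors compared as wild type are called Wa and Wb, and the 2 mutant ones Ma and Mb. Listed features held from 14539 reads in Mb to 160207 in Wa. Normalized reads are reads divided by the authors' size factor, and intervals for a library are exact 95% intervals that cover counting error only. Library Mb stood apart. Its log2 normalized reads correlated with the other libraries at 0.14 to 0.26 across features, which are not independent replicates, against 0.74 to 0.83 among the other 3. Of 23 B cell progenitor markers 10 had features, Ikzf1 and Rag1 among them, while Pax5, Ebf1 and Cd79a had none. Their summed features held 19.9 normalized reads in Mb, where 7 of the 10 were at 0, and 261.7 to 289.7 in the other libraries. Of 11 stromal and hepatocyte markers, only Vim and Pdgfra had features, with 201.2 normalized reads in Mb and 4.08 to 9.71 elsewhere. Of 5 T cell markers only Bcl11b had a feature, with 39.8 in Mb and 0 elsewhere, and no listed erythroid or myeloid marker had one. Their part in the results below was not tested. RNA levels were not used, so fewer Ago2 reads and less Bcl2l11 transcript cannot be told apart.

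Seed 5 carried most of the Ago2 reads on the gene. It had the highest read count of the 8 seeds in every library and held 74.5% of the summed mean of the gene. Each wild-type library had 183 reads at seed 5, while Ma had 9 and Mb 44, in libraries of unlike depth. In normalized reads Wa had 49.7, Wb 168.6, Ma 14.6 and Mb 97.3. Mb thus lay between the wild-type libraries, and the groups overlapped. As a share of the reads at all Bcl2l11 seeds, seed 5 held 56.1% for Wa (interval 50.6 to 61.6) and 77.9% for Wb (72.0 to 83.0). The mutant libraries had 42.9% for Ma (21.8 to 66.0) and 93.6% for Mb (82.5 to 98.7). The shares did not separate by genotype: the mutant-side libraries were the lowest and the highest of the 4, and the wild-type libraries differed from each other beyond their intervals. Shares within a gene do not depend on how libraries are scaled to each other. They do depend on how many bases each feature covers, which is not given in the sources used here, so they order reads per feature and not binding per base.

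**Figure D1:**
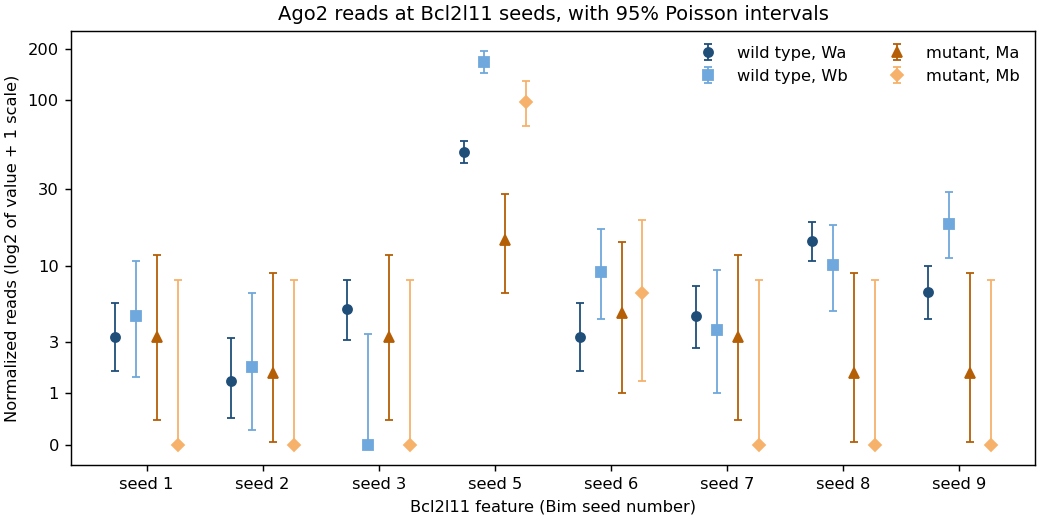
Normalized Ago2 reads (log2 of value + 1 scale) at each Bcl2l11 seed in the 4 libraries; bars are exact 95% Poisson intervals. Seed 5 is the highest in each library, and at seeds 8 and 9 Ma and Mb lie at 1.62 and 0, below both wild-type libraries.

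The gene as a whole did not separate by genotype either. Reads at all 8 seeds together numbered 326 (Wa), 235 (Wb), 21 (Ma) and 47 (Mb), which is 0.203%, 0.606%, 0.0853% and 0.323% of the listed reads of each library. The mutant-side library Mb lay between the wild-type libraries, and Ma lay below all others with an interval of 0.0528% to 0.130%. In normalized reads Wa had 88.6, Wb 216.5, Ma 34.0 and Mb 103.9, so the groups overlapped. Taken without seed 5, the wild-type libraries had 38.9 (Wa, interval 32.8 to 45.8) and 47.9 (Wb, 35.8 to 62.8) normalized reads at the other 7 seeds, and the mutant ones 19.4 (Ma, 10.0 to 33.9) and 6.63 (Mb, 1.37 to 19.4). On these 7 both mutant-side libraries were below both wild-type libraries, an order found at 20.1% of all single features. These 7 seeds reached 5 reads, the lowest count for listing, on the wild-type side only. That leans them toward lower mutant values, so this order is given as description.

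A feature was listed only where at least 1 library had 5 or more reads, as read from the table. Of the 8 seeds, 7 reached 5 reads on the wild-type side only and 1, seed 5, on both sides. Wa, with the most reads, reached it at all 8, Wb at 5, Ma at 1 and Mb at 1. Seeds that entered through the wild-type libraries lean toward lower mutant values by that route, so counts over the 8 are given here as description. In the authors' deposited table the log2 fold change (mutant over wild type) was negative at 8 of 8, with a median of -0.84, against 52.5% of all features and a median of -0.07. Among features with a deposited mean of at least 10, 61.5% were below 0, with a median of -0.26. After Benjamini-Hochberg adjustment of the authors' p-values over all features 0 of the 8 seeds passed an adjusted p of 0.05, and 0% of all features did. At an unadjusted p under 0.05, 2 of the 8, seeds 8 and 9, were lower in the mutant, where 0.903% of all features were called in that direction and 7.57% in the other. With limma's voom, 0 of 8 seeds and 0% of features passed an adjusted p of 0.05. At an unadjusted p under 0.05 voom called 0 of the 8 and 0.157% of features as lower in the mutant. Zeros in Mb were found at 6 of 8 seeds, against 25.2% of all features, a background not matched for mean reads. At the mean wild-type level these 6 seeds would have given from 0.724 (seed 2) to 5.70 (seed 9) reads in Mb.

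**Figure D2:**
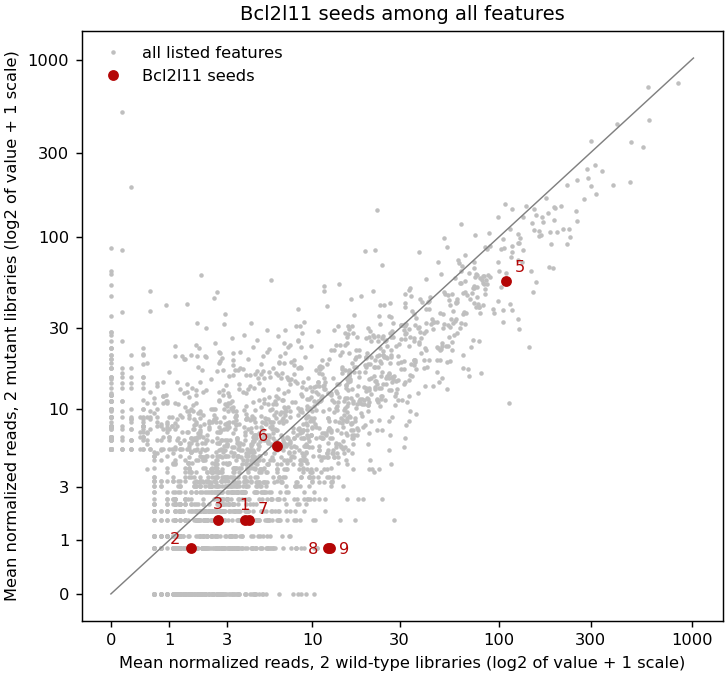
Mean normalized reads of the mutant side against the wild-type side (both on a log2 of value + 1 scale) for all 2548 features, with the 8 Bcl2l11 seeds numbered; the line marks equal means. Seeds 8 and 9 lie at 12.3 and 12.6 on the wild-type side and 0.809 on the mutant side, and seed 6 lies near the line.

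Seeds 8 and 9 ranked next to seed 5 in reads in both wild-type libraries and were close to unread in the mutant ones. Seed 8 had 53 and 11 reads in the wild-type libraries Wa and Wb, and 1 and 0 in the mutant libraries Ma and Mb. Seed 9 had 25 and 20 reads in the wild type, and again 1 and 0 in the mutant. At each of these seeds both mutant-side libraries lay below both wild-type libraries, and the libraries of a genotype were on 1 side of a gap. The gap at seed 8 was between 10.1 normalized reads in Wb and 1.62 in Ma, and at seed 9 between 6.79 in Wa and 1.62 in Ma. This order of the libraries was found at 4 of the 8 seeds (1, 7, 8 and 9) and at 20.1% of all features, and the opposite order at 0 of the 8 and 13.1% of features. Without Mb, Ma alone lay below both wild-type libraries at 5 of the 8 seeds, seed 5 among them, and at 36.3% of all features.

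Both seeds were singled out after their values were seen, and the mutant libraries were shallow. At the mean wild-type level, seed 8 would have given 7.58 reads in Ma and 5.55 in Mb, and seed 9 7.79 and 5.70. At the level of the lower wild-type library it would have been 6.26 and 4.58 reads at seed 8 and 4.20 and 3.07 at seed 9. The exact upper limit of a count of 0 is 3.69 reads, so that at seed 9 the zero in Mb alone does not exclude the level of Wa. Whether mutant reads were aligned to a sequence with the changed sites is not given in the sources used here, so fewer Ago2-bound fragments and fewer aligned reads at a changed site cannot be told apart. The ratio of mutant to wild-type reads per size factor was 0.0696 at seed 8 (interval 0.00173 to 0.402) and 0.0990 at seed 9 (0.00245 to 0.580), each on 1 mutant read, and these intervals hold no spread between lines. With Ma alone on the mutant side they were 0.121 (0.00300 to 0.696) and 0.171 (0.00425 to 1.00). The authors' deposited table gave a log2 fold change of -2.78 for seed 8 (derived standard error 1.38, p = 0.0429, adjusted p = 0.561) and -2.74 for seed 9 (1.39, p = 0.0494, adjusted p = 0.563). The 95% intervals, -5.48 to -0.09 and -5.47 to -0.01, reach almost to no change. Both seeds kept a log2 fold change below 0 under all 8 alternatives run, from -3.92 to -2.39 for seed 8 and -3.82 to -2.12 for seed 9. With both mutant-side libraries far below both wild-type libraries, that sign could hardly change, so it is no separate support. Neither seed passed an adjusted p of 0.05 in the fits on all libraries.

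The other 5 seeds had few reads in every mutant library, with 1 to 3 in Ma and 0 to 3 in Mb. Seed 1 had 12 and 5 reads in the wild type (Wa, Wb) and 2 and 0 in the mutant (Ma, Mb). Seed 2 had 5 and 2 against 1 and 0, and seed 3 had 19 and 0 against 2 and 0. Its wild-type libraries disagreed, as the interval of Wa in normalized reads (3.11 to 8.06) lay almost wholly above what Wb allowed (0 to 3.40). Seed 7 had 17 and 4 reads in the wild type and 2 and 0 in the mutant. Seed 6 had 12 and 10 against 3 and 3. In normalized reads seed 6 ran from 3.26 in Wa to 9.21 in Wb with Ma at 4.86 and Mb at 6.63 between them, so its groups overlapped fully. It was the only seed other than 5 with a read in Mb.

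Counted together, seeds 1, 2, 3, 6 and 7 had 17.7 (Wa, interval 13.6 to 22.5) and 19.3 (Wb, 12.0 to 29.6) normalized reads in the wild type, and 16.2 (Ma, 7.76 to 29.8) and 6.63 (Mb, 1.37 to 19.4) in the mutant. In Ma these 5 together lay within the counting intervals of the wild-type libraries. On seeds 8 and 9 together Ma had 3.24 (0.392 to 11.7) against 21.2 and 28.6. The seeds were grouped after their values were seen, so this contrast follows from the choice and was not tested. At single seeds Ma was below both wild-type libraries at seeds 1 and 7, by less than its counting interval. For seeds 1, 2, 3 and 7 the zeros of Mb carry little information. At the mean wild-type level they would have given 0.724 to 1.88 reads there, under the upper limit of 3.69 reads for a count of 0. In the authors' deposited table the log2 fold changes of these 5 seeds ran from -0.92 at seed 7 to -0.07 at seed 6, with derived standard errors of 1.12 to 1.54 and p from 0.502 to 0.952. The 95% interval at seed 6, -2.27 to 2.13, leaves room for a change of either sign.

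Relative use of the sites was compared next. A change in the amount of the whole Bcl2l11 transcript would in principle move all seeds alike and cancel. A change in part of the 3' UTR would not. At seeds with few or no reads the cancelling is only rough in a fit, since voom adds a constant to each count. Without seed 5, seeds 8 and 9 together took 54.5% (Wa, interval 46.0 to 62.9) and 59.6% (Wb, 45.1 to 73.0) of the remaining reads in the wild type. They took 16.7% (2.09 to 48.4) in Ma and 0 of 3 reads in Mb, which is too few to place a share. For the pair the wild-type libraries were alike and above Ma, with intervals of Wa and Ma that overlap between 46.0% and 48.4%. Singly they were less alike. Of the same reads seed 8 took 37.1% (Wa) and 21.2% (Wb), with overlapping intervals. Seed 9 took 17.5% (Wa, 11.6 to 24.7) and 38.5% (Wb, 25.3 to 53.0). With seed 5 counted, the pair took 23.9% (Wa, 19.4 to 28.9), 13.2% (Wb, 9.14 to 18.2), 9.52% (Ma, 1.17 to 30.4) and 0% (Mb). There the wild-type libraries differed beyond their intervals, and the interval of Ma held both. This pair was chosen after its values were seen and was not tested. As a share of all Bcl2l11 reads, seed 8 took 16.3% (Wa) and 4.68% (Wb) in the wild type against 4.76% (Ma) and 0 of 47 reads (Mb) in the mutant, so that Wb and Ma did not differ beyond their intervals. Seed 9 took 7.67%, 8.51%, 4.76% and 0%.

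**Figure D3:**
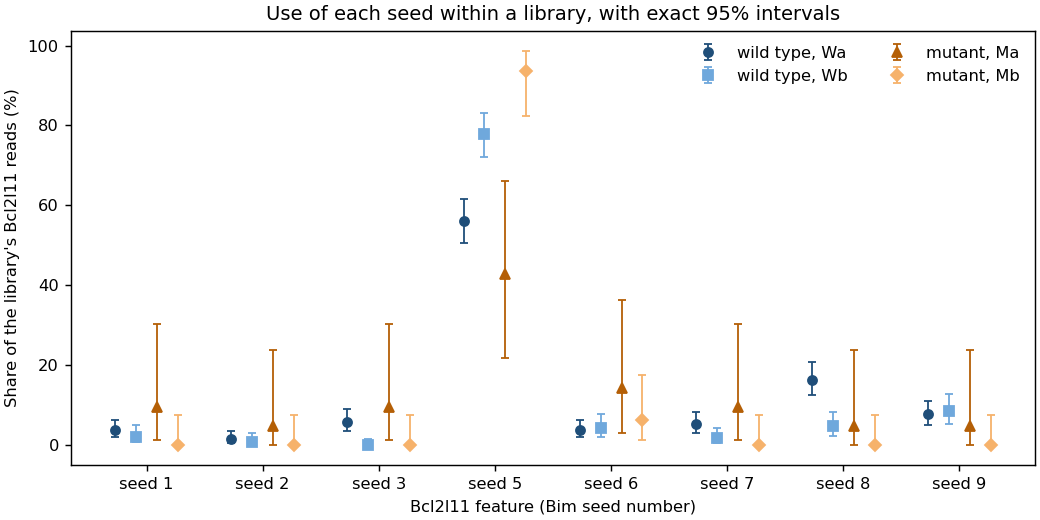
Share of a library's Bcl2l11 reads (percent) at each seed in the 4 libraries; bars are exact 95% binomial intervals. Seed 5 runs from 42.9% in Ma to 93.6% in Mb, with both wild-type libraries between them.

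A fit over all features tested each seed against the other seeds of the gene (limma's diffSplice on voom values, 1192 features in 492 genes with more than 1 feature). No seed passed: 0 of 8 at an adjusted p of 0.05, as 0% of the features tested, and 0 of 8 at an unadjusted p under 0.05, where 1.76% of features were. Seeds 8 and 9 had the lowest use in the mutant, with log2 changes of -2.13 (SE 1.52) and -2.06 (SE 1.52) and a limma adjusted p of 0.983 each. Their direction was the same under all 7 alternatives, from -3.30 to -1.64 at seed 8 and -2.98 to -1.34 at seed 9. The alternatives reuse the same reads, and both seeds were picked after their values were seen, so this is no separate support. Seed 6 had the highest use, 1.51 (SE 1.12, limma adjusted p = 0.983), and was above 0 under all 7, from 0.87 to 2.22. Use is relative, so it rises at a seed when the others fall. In reads the groups overlapped at seed 6, and its log2 fold change reversed in 6 of 8 alternatives. For the gene as a whole, the test that any seed differs from the rest gave a limma adjusted p of 0.991 over 492 genes.

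Seed 5 had no settled direction in relative use. Its log2 change was -0.43 (SE 1.10) with all libraries, -2.16 without Mb and 1.17 without Ma. Each mutant-side library alone thus placed seed 5 on a different side of the wild-type lines. Its log2 fold change in reads moved the same way, to -2.49 without Mb and 0.20 without Ma, in voom. The relative use of seeds 1, 2, 3 and 7, at 0.18, 0.96, 1.12 and 0.01, likewise changed sign when single libraries were left out. At seed 3 leaving out Wa gave 3.82 and leaving out Ma gave -1.09.

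**Figure D4:**
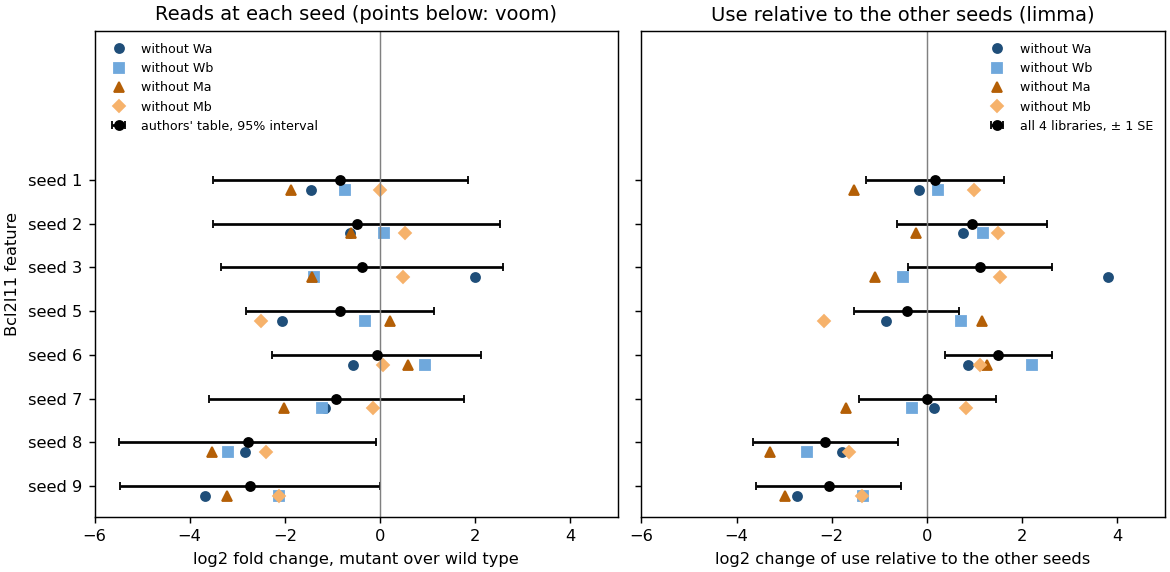
Left, log2 fold change (mutant over wild type) at each seed (black, the authors' deposited value with its 95% interval) and voom values with 1 library left out (coloured). Right, log2 change of use relative to the other seeds with all libraries (black, ± 1 SE) and with 1 library left out; seeds 8 and 9 stay below 0 and seed 6 above 0 in each fit on the right, while seed 5 runs from -2.16 to 1.17.

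Bcl2l11 had the most listed features of any gene, the only one with 8. Its features were named by the authors as seeds while those of other genes carry gene identifiers, so the feature counts are not of the same kind. By summed mean, 110.7 normalized reads, 63 genes ranked above it, and seed 5 alone was the 79th highest feature. The concentration of reads in a single feature was not out of range for a gene with many features: of the 9 other genes with at least 5, the highest feature held from 28.9% to 87.3% of the summed mean (median 52.6%), and 1 exceeded the 74.5% of Bcl2l11. The log2 fold changes of the Bcl2l11 seeds spanned 2.72, against a median span of 2.25 in those 9 genes. A span from lowest to highest tends to widen with the number of features, and those genes had fewer, so the 2 values are not a like comparison.

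The features with the pattern over the 4 libraries most like the summed Bcl2l11 seeds were at Stat3, Arhgef11, Nedd1, Necap1 and Ric1. Likeness was the distance between centred log2 (normalized reads + 1) profiles over 4 libraries, among features with a deposited mean of at least 10. Stat3, a transcription factor activated by cytokines, was the nearest at 0.262, with 61 and 49 reads in the wild type (Wa, Wb) and 3 and 8 in the mutant (Ma, Mb). Arhgef11, a guanine nucleotide exchange factor, followed at 0.350 with 45 and 27 against 2 and 7 reads. Nedd1, needed for microtubule nucleation at the spindle, lay at 0.582, Necap1, an endocytosis protein, at 0.718 and Ric1 at 0.769. In all 5 Wb was the highest and Ma the lowest library in normalized reads, which is the order at the summed seeds that the rule looked for.

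Other genes of the pathway were described from lists, with 1 feature per gene. Of 20 other BCL-2 family genes 4 had a feature: 3 had a log2 fold change above 0 and 1 below in the authors' deposited table. Their median was 0.37 against -0.07 over all features, and 0 passed an adjusted p of 0.05. Over all features 52.5% were below 0 and 0% passed, and 4 genes are too few to set apart from that background. Bbc3, which encodes the BH3-only protein PUMA, had 1.09 (derived standard error 0.76), with 105 and 16 reads in the wild type (Wa, Wb) and 23 and 28 in the mutant (Ma, Mb). Bmf, a BH3-only relative of BIM, had -1.83 (1.51) on 9 and 4 against 0 and 0 reads, and the survival gene Mcl1 had 0.71 (0.87) on 67 and 8 against 18 and 7 reads. Of 51 other known targets of the miR-17 cluster 36 had a feature. The authors' deposited table placed 22 of them below 0 and 14 above, with a median of -0.36, and 0 passed an adjusted p of 0.05. That is 61.1% below 0, against 52.5% of all features and 61.5% of those with a deposited mean of at least 10, so the count is near the background.

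The targets with the smallest p were Socs3, Thbs1 and Rb1. Socs3, which dampens signalling by cytokine receptors, had 189 and 86 reads in the wild type and 11 in each mutant library, with a deposited log2 fold change of -1.53 (derived standard error 0.73, adjusted p = 0.561). Rb1, the retinoblastoma gene, had 35 and 27 against 2 and 0 reads, close to the counts of seed 9, with -2.58 (1.26) in the authors' deposited table. Thbs1, thrombospondin, was read in Mb alone, 78 times. Of 25 microRNA effector genes 13 had a feature, 8 below and 5 above 0 (61.5% below), with a median of -0.22 and 0 past an adjusted p of 0.05, which is again near the 52.5% and 61.5% below 0 of those backgrounds. Ddx6, an RNA helicase that helps to repress microRNA targets, had 6 and 15 reads in the wild type and 0 in both mutant libraries, with -2.74 (1.49) in the authors' deposited table. Cnot6, of the deadenylase complex, had 2.48 (1.47) on 3 and 0 against 0 and 8 reads, and Pan3, of another deadenylase, 1.21 (1.01) on 10 and 14 against 8 and 12.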

How the data were processed

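The authors made the deposited table with CASAVA 1.8.2, BWA 0.7.12-r1039 and DESeq2 on the builds mm9 and NCBIM37, per the submitters' processing notes. How seeds were defined, and whether mutant reads were aligned to a sequence with the changed sites, is not given in the sources used here. Per the file headers the columns are a mean of reads over size factors (a normalized signal), a log2 fold change, which its values show to be shrunken toward 0, and an unadjusted p-value. Its direction was taken from the table's name.

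Adjusted p-values (Benjamini-Hochberg, 2548 features) and standard errors (a Wald test assumed) were computed here. Whole reads were recovered by searching for the whole-number sums that give each mean: all 2548 features had exactly 1 solution within 1.5e-12, the largest misfit being 5.12e-13. Size factors were 3.68 (Wa), 1.09 (Wb), 0.618 (Ma) and 0.452 (Mb). The sides are those whose means gave the deposited sign for 98.8% of features. The other pairings gave 67.4% and 32.4% with Wa kept on the wild-type side. With its sides swapped, the pairing at 32.4% would give the sign for most features, still fewer than the sides used. A wrong label in the authors' comparison would carry over. voom and diffSplice were run with limma 3.58.1 in R 4.3.3 on the recovered reads. They were also run on simulated reads in which no library stood apart as Mb does, so that run does not show how they perform here. With 2 libraries a side, p-values rest on very few samples.

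Members and lists were chosen with earlier results of these data known. Genes named are every Bim seed, the 5 most alike features and up to 3 of each list by p. Of the identifiers, 2540 matched RefSeq's GRCm38.p6 table, used for symbols.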

Additional observations from a re-analysis of the deposited data

How the results depend on the processing

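In the alternatives on all libraries (other filters, voom, limma-trend, other scalings) no seed passed an adjusted p of 0.05. In the authors' comparison none passed an adjusted p of 0.1 either, and an unadjusted p of 0.05 gave 2. As 0% of all features passed an adjusted p of 0.05 in the authors' comparison and in voom, a count of 0 there says little about the seeds. At a deposited mean of at least 10 only seed 5 was left to test, so that alternative could not have called any other seed. limma-trend also called 2, seeds 8 and 9, at an unadjusted p under 0.05. No paired analysis was possible because the recovered libraries cannot be tied to replicate numbers. In the fits that left out a library the lone library of a side is assumed to vary like the rest. Log2 fold changes of single seeds kept their direction in 49 of 64 alternatives and reversed in 15, none at seeds 7, 8 and 9. At seeds 8 and 9 the gap between the sides left little room for a change of sign. The cause of the reversals was not tested. With voom on all libraries seed 3 had 0.0601 and seed 6 0.26. limma-trend gave seed 6 0.0373. Scaling to total reads, which moved the median of all features to 0.17, gave 0.13 at seed 2, 0.23 at seed 3 and 0.45 at seed 6. With a library left out, voom ran from -1.86 to 0.00301 at seed 1, -0.63 to 0.52 at seed 2, -1.44 to 2.00 at seed 3, -2.49 to 0.20 at seed 5 and -0.56 to 0.95 at seed 6. Relative use kept its direction in 42 of 53 alternatives and reversed in 11. Seed 7 had -0.0411 among features of at least 20 reads and -0.0893 without seed 5. With a library left out, use ran from -1.54 to 1.00 at seed 1, -0.22 to 1.50 at seed 2, -1.09 to 3.82 at seed 3, -2.16 to 1.17 at seed 5 and -1.71 to 0.83 at seed 7. Without Mb, chosen after seeing the data, the ratio of mutant to wild-type reads became 1.10 at seed 2, where it had been 0.636, and 0.190 at seed 5, where it had been 0.645. Of the 5 most alike features 4 remained when 0.5 was added in place of 1. At a minimum mean of 20 only 1 could remain, since of the 5 only Stat3, at 21.1, has a mean that high. Depth limits seeds 1, 2, 3 and 7 most.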
